A study of Mus musculus with 4 samples.

Results

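Ciliated airway cells were examined in single-cell RNA sequencing of mouse lung. The members were chosen by their measured UMI counts. A cell was a member if Foxj1, Tmem212, Ccdc153, Rsph1, Dynlrb2, Cfap126, 1110017D15Rik and Sec14l3 together made up at least 0.4% of its unique molecular identifiers (UMIs, each a tagged mRNA molecule). A member also had to have less than 0.1% of its UMIs from the leukocyte genes Ptprc, Laptm5, Tyrobp and Coro1a, less than 5% from the surfactant genes Sftpc, Sftpb and Sftpa1, and at most 3 UMIs of the endothelial and fibroblast genes Cdh5, Cldn5, Col1a1 and Col1a2. By this rule 295 of 25982 cells were members. The 4 libraries came from wild-type mice in normoxia given vehicle (NW), FUNDC1 knockout mice in normoxia given vehicle (NK), wild-type mice under HySu (HSW) and FUNDC1 knockout mice under HySu (HSK). HySu is hypoxia plus SU5416, given once a week for 3 doses; SU5416 blocks VEGF receptors and is combined with hypoxia to model pulmonary hypertension. Each library was a pool of 5 mice aged 11 weeks, so each group was 1 sample. No difference between groups therefore had a replicate check, no test was possible, and the 95% intervals given cover counting error only. The title of the series speaks of an endothelial deficiency of FUNDC1, but the sample labels name neither a Cre driver nor the cells in which the gene was deleted.

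Multiciliated cells line the conducting airways and beat in coordinated waves to move mucus out of the lung. Each motile cilium is built on an axoneme, a ring of doublet microtubules around a central pair, in which dynein arms generate force, radial spokes and nexin links control it, and intraflagellar transport carries the parts to the tip. The cells arise from secretory and basal progenitors through Gmnc and Mcidas, after which the transcription factors Foxj1 and Rfx2 and Rfx3 switch on the axonemal genes. Fundc1 encodes an outer mitochondrial membrane receptor that recruits LC3 for mitophagy, the removal of mitochondria by autophagy.

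RFX factors bind the X-box, whose core is GTTGCC, with GGCAAC on the opposite strand. RefSeq promoter windows of the GRCm38.p6 build, from 250 bases before to 50 after a gene's start, were available for 6 of the 8 genes of the rule, and 3 of these genes held the core on at least 1 strand. These 3 windows are printed because they belong to genes that define the cells, with the core on either strand in capitals. Ccdc153 (chr9:44240427-44240726, plus strand) and Dynlrb2 (chr8:116504765-116505064, plus strand) had 1 match each. The window of 1110017D15Rik (chr4:41507715-41508014, minus strand) had 2 matches on opposite strands, and a further window of the same gene had none.
Ccdc153: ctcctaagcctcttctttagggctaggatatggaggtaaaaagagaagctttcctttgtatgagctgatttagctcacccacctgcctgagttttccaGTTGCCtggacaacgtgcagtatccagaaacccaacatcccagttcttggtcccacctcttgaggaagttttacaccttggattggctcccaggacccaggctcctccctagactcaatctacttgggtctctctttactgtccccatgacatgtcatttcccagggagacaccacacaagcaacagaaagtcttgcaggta
Dynlrb2: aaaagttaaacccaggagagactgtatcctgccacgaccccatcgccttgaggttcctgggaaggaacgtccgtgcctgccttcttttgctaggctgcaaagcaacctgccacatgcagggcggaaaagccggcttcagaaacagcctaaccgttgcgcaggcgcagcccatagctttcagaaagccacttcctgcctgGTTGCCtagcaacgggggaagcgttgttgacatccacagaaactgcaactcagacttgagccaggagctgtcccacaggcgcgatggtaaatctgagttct
1110017D15Rik: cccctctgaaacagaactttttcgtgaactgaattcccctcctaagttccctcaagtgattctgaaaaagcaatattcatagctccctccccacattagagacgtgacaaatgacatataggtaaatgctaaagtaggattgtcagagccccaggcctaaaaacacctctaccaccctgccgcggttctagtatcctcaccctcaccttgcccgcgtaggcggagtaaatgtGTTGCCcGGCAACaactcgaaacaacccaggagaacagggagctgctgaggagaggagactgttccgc
The windows of Cfap126, Tmem212 and Sec14l3 held no match. Of 130 genes of the 7 axonemal lists with a window, 59 (45.4%) held the core, against 3821 of all 27025 genes with a window (14.1%). Among these lists the share was 66.7% for the microtubule inner proteins, which sit in the lumen of the doublets, and 13.3% for the outer dynein arm. A match describes the letters in the window and not a bound site.

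The NW, NK, HSW and HSK libraries held 7649, 9164, 5041 and 4128 cells and between 41308071 and 63501686 UMIs. The lowest UMI count of a deposited cell differed, from 3182 in NK to 4726 in HSK. Pairs of libraries shared 20 to 70 cell barcodes, none of them of a member. A doublet caller marked 52 of 25982 cells and no member, too few for libraries of this size to be taken as working, so doublets were not removed. The 8 genes reached the 0.4% threshold in 389 cells, of which 94 were lost to the other limits, 69 of them with leukocyte transcripts. The lowest member held 0.402%, and among cells that met the other limits the highest outside held 0.399%. Between 0.4% and 0.5% lay 40 members, and 37 cells that met the other limits lay between 0.3% and 0.4%.

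The members were of 3 kinds that the rule had not separated. In 145 members the secretory cell genes Scgb1a1, Scgb3a2 and Cyp2f2 together were below 3% of UMIs and 8 alveolar type 1 (AT1) marker genes below 1%, and these are called secretory-poor. In 139 members, called secretory-rich, the secretory genes were at least 3%, with a median of 34.3% and a highest value of 70.5%. The cut fell in a gap, since 3 members lay between 2% and 3% and 3 between 3% and 5%. The other 11 members carried at least 1% AT1 marker UMIs, among them 47 to 182 UMIs of Ager per cell. These 11 AT1-marked cells passed the rule through Sec14l3, with 286 UMIs in all against 2 UMIs of the other 7 genes of the rule, and none held Foxj1. The label of ciliated cell was thus not borne out by markers in these 11 cells. All 3 cuts were set after the values were seen.

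**Figure D1:**
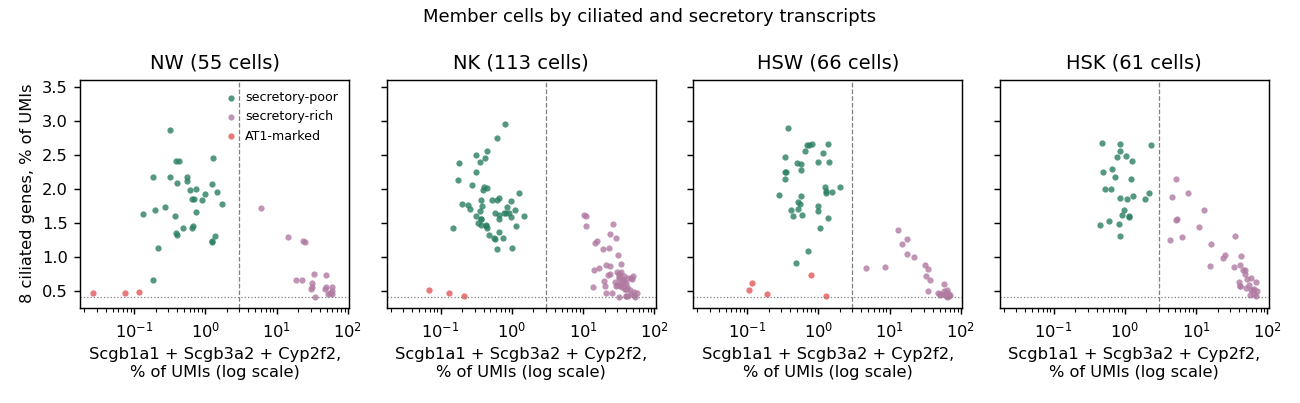
Each point is 1 member cell, with the share of its UMIs from Scgb1a1, Scgb3a2 and Cyp2f2 on a log axis and the share from the 8 ciliated genes of the rule on the vertical axis, in a panel for each library. The dashed line marks 3% and the dotted line 0.4%; the 139 secretory-rich members lie right of the dashed line, with lower ciliated shares than most of the 145 secretory-poor members, and the 11 AT1-marked members lie at the lower left.

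The secretory-poor members matched the marker profile of multiciliated cells, including genes that the rule did not use. After each cell was thinned to 4726 UMIs, which left out 48 shallower cells (9, 30, 9 and 0 in NW, NK, HSW and HSK), Dnah5, the heavy chain of the outer dynein arm, had a UMI in 86.6% of the 97 cells kept, against 91.0% of the 145 cells before thinning. In the 223 secretory cells kept, a type that should lack it, Dnah5 had a UMI in 2.69% (5.46% of 238 before thinning). Median depths were 5476 UMIs in secretory-poor members and 16655.5 in secretory cells. Tekt1, a tektin filament protein, was found in 85.6% of thinned secretory-poor members and 1.79% of thinned secretory cells. Hydin, of the central pair, was found in 54.6% and 0.897%. The upstream regulators Myb, Trp73, Rfx3 and Rfx2 had a UMI in 48.5%, 33.0%, 27.8% and 19.6% of thinned secretory-poor members. Among genes of the deuterosomal stage, in which new basal bodies form, and its regulators, Deup1 had a UMI in 27 of the 145 unthinned cells, close to the 28 with Rfx2, and Ccno in 5, Mcidas in 1 and Gmnc, Cdc20b and Foxn4 in none. A count of 0 of 145 allows a share of cells with a UMI of up to 2.07%. Of the 139 secretory-rich members, which were deeper, 30 held Deup1, 14 Ccno, 7 Gmnc, 6 Foxn4, 5 Mcidas and 3 Cdc20b. The basal cell gene Krt5, the tuft cell gene Trpm5 and the ionocyte gene Foxi1 were at 0 in all 295 members. The proliferation genes Mki67 and Top2a had a UMI in 5 and 12 of the 295.

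Secretory-rich members held both programmes and more RNA. Dnah5, which the rule did not use, had a UMI in 61.1% of the 131 thinned secretory-rich members. Foxj1, a gene of the rule and given as a description, had a UMI in 70.2% of these members. Their median ciliated share of UMIs was 0.658%, against 1.83% in secretory-poor members, and these shares were used by the rule. Their median depth in NW, NK, HSW and HSK was 21286, 9716, 11723.5 and 9166 UMIs, above the 5401, 4517, 5642 and 6000.5 of the secretory-poor members. They supplied 2167335 of the 3072685 UMIs of all members, so sums over all members mostly count secretory-rich cells. Whether a secretory-rich barcode held 1 cell or several was not tested. Gene comparisons are therefore given mainly for the secretory-poor members.

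Members made up 0.719% of NW cells (55 cells, exact interval 0.542 to 0.935) and 1.23% of NK cells (113 cells, 1.02 to 1.48). In the HySu libraries they made up 1.31% (HSW, 66 cells, 1.01 to 1.66) and 1.48% (HSK, 61 cells, 1.13 to 1.89). The NW library had the lowest share, and the intervals of the other 3 overlapped. The ratio of shares was 1.82 (1.25 to 2.65) for HSW over NW, 1.71 (1.23 to 2.41) for NK over NW, 1.20 (0.863 to 1.65) for HSK over NK and 1.13 (0.784 to 1.62) for HSK over HSW. Secretory-poor members alone numbered 33, 51, 35 and 26 in NW, NK, HSW and HSK, and their 4 ratios had intervals that all held 1, from 0.907 (0.524 to 1.55) for HSK over HSW to 1.61 (0.971 to 2.67) for HSW over NW. Secretory-rich members numbered 19, 59, 26 and 35, with ratios of 2.59 (1.52 to 4.60) for NK over NW and 2.08 (1.11 to 3.97) for HSW over NW. Their ratios of 1.32 (0.841 to 2.03) for HSK over NK and 1.64 (0.962 to 2.84) for HSK over HSW held 1 within their intervals. AT1-marked members numbered 3, 3, 5 and 0. Shares of deposited cells depend on how many cells of other types each library kept and on the minimum UMI count, and loss of those cells and gain of ciliated cells cannot be told apart.

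Fundc1, the targeted gene, had 33, 0, 21 and 4 UMIs in the members of NW, NK, HSW and HSK. These were 52.7 CPM (counts per 1000000 UMIs of the members) in NW, 29.0 CPM in HSW and 6.08 CPM in HSK. The wild-type libraries were above the knockout libraries in both conditions, as the labels have it. The NK level was at least 18.7-fold lower than in NW when 3 counts are taken as the floor in the NK members and the NW count as exact, and the exact interval of the NK over NW ratio, which covers counting error in both, ran from 0 to 0.0696. The HSK over HSW ratio was 0.209 (0.0523 to 0.621). In all other cells the levels were 42.4, 0.913, 39.1 and 0.148 CPM in the same order. The lower level in the knockout libraries was thus seen in members, which are not endothelial cells, and over all other cells together. In which cells the gene was deleted was not tested. In secretory-poor members the 4 libraries held 13, 0, 11 and 2 UMIs, so the gene was near its detection limit there.

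Over all members, 54 of 3540 genes with at least 50 UMIs in the pair (1.53%) were at least 2-fold higher in HSW than in NW and 288 (8.14%) at least 2-fold lower. For HSK over NK these were 96 of 4596 (2.09%) and 634 (13.8%). This excess of lower genes depended on scaling: with edgeR's TMM factors, which follow the bulk of genes and not the total, the split was 165 higher and 99 lower for HSW over NW and 284 and 270 for HSK over NK. For the knockout, 116 of 4845 genes (2.39%) were higher and 51 (1.05%) lower in NK than in NW, and 26 of 3264 (0.797%) higher and 51 (1.56%) lower in HSK than in HSW. Some calls over all members rested on cells other than the secretory-poor ones. Scgb3a2, a secretoglobin of secretory cells, had ratios of 0.265 for HSW over NW and 0.431 for HSK over NK in all members, on levels of 11422, 9699, 3025 and 4179 CPM in NW, NK, HSW and HSK, but 57 to 103 CPM in secretory-poor members. Hmox1, heme oxygenase, had 87 UMIs in the NK members against 18, 14 and 10 in NW, HSW and HSK, and 1 UMI in the secretory-poor members of each library.

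Within secretory-poor members, 80 of 1712 genes (4.67%) were at least 2-fold higher and 108 (6.31%) at least 2-fold lower in HSW than in NW. For HSK over NK, 111 of 1766 (6.29%) were higher and 144 (8.15%) lower. The median log2 ratio over all these genes was -0.03 and -0.07. TMM factors moved it to 0.24 and 0.16 and the splits to 188 higher and 41 lower, and to 199 and 75. Ratios below are on total UMIs and are read against those medians. Where a gene named below had fewer than 50 UMIs in 1 of its pairs, that ratio is given with its interval but is not among the counts. In the knockout comparisons 29 of 1940 genes (1.49%) were higher and 27 (1.39%) lower in NK than in NW, and 18 of 1539 (1.17%) higher and 6 (0.39%) lower in HSK than in HSW. More genes passed 2-fold with HySu than with the knockout at this depth, in both genotypes and both conditions.

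Several genes had HySu ratios above 2 in both genotypes in secretory-poor members. S100a11, a calcium-binding S100 protein, stood at 1385, 1116, 5373 and 4164 CPM in NW, NK, HSW and HSK. Both HySu libraries lay above both normoxia libraries, with ratios of 3.88 (3.40 to 4.44) for HSW over NW and 3.73 (3.25 to 4.30) for HSK over NK. It had a UMI in every secretory-poor cell of NW, HSW and HSK and in 47 of 51 of NK, and the median cell went from 1152 CPM in NW to 5419 in HSW and from 819 in NK to 3896 in HSK. In all other cells its HSW over NW ratio was 1.71, and the ratio in secretory-poor members was 2.27 times that (1.99 to 2.60). AU040972, named here by its symbol without a role, stood at 628, 652, 2737 and 1908 CPM in NW, NK, HSW and HSK. Its ratios were 4.36 (3.58 to 5.33) and 2.93 (2.42 to 3.55), and it stood at 3.54 to 14.5 CPM in all other cells. In NW 1 cell held 29.5% of its UMIs, and in HSW and HSK the top cell held 15.8% and 15.2%.

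Meig1, which in mouse is needed to build the sperm flagellum, stood at 273, 244, 766 and 786 CPM in NW, NK, HSW and HSK. Both HySu libraries were again above both normoxia libraries, and the share of cells with a UMI went from 63.6% and 58.8% in NW and NK to 91.4% and 96.2% in HSW and HSK. The HSW over NW ratio was 2.81 (2.05 to 3.89) and the HSK over NK ratio 3.22 (2.37 to 4.43). Cdkn1c, the cyclin-dependent kinase inhibitor p57, stood at 340, 244, 928 and 1031 CPM, with ratios of 2.73 (2.06 to 3.66) and 4.22 (3.14 to 5.74). Cxcl17, a mucosal chemokine, stood at 412, 208, 1230 and 997 CPM, with ratios of 2.99 (2.32 to 3.88) and 4.79 (3.50 to 6.66). Suclg1, a subunit of succinyl-CoA ligase of the citric acid cycle, had ratios of 5.39 (3.26 to 9.41) and 3.64 (2.42 to 5.59). Gapdh, a glycolytic enzyme with many processed copies in the genome that may share reads, had ratios of 2.55 (1.87 to 3.53) and 4.12 (2.81 to 6.16). The hypoxia and glycolysis list had median log2 ratios of 0.32 for HSW over NW and -0.10 for HSK over NK (TMM 0.58 and 0.13). Gstp1, a glutathione transferase with a near-identical neighbour, had ratios of 2.19 (1.55 to 3.14) and 3.81 (2.63 to 5.62).

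**Figure D2:**
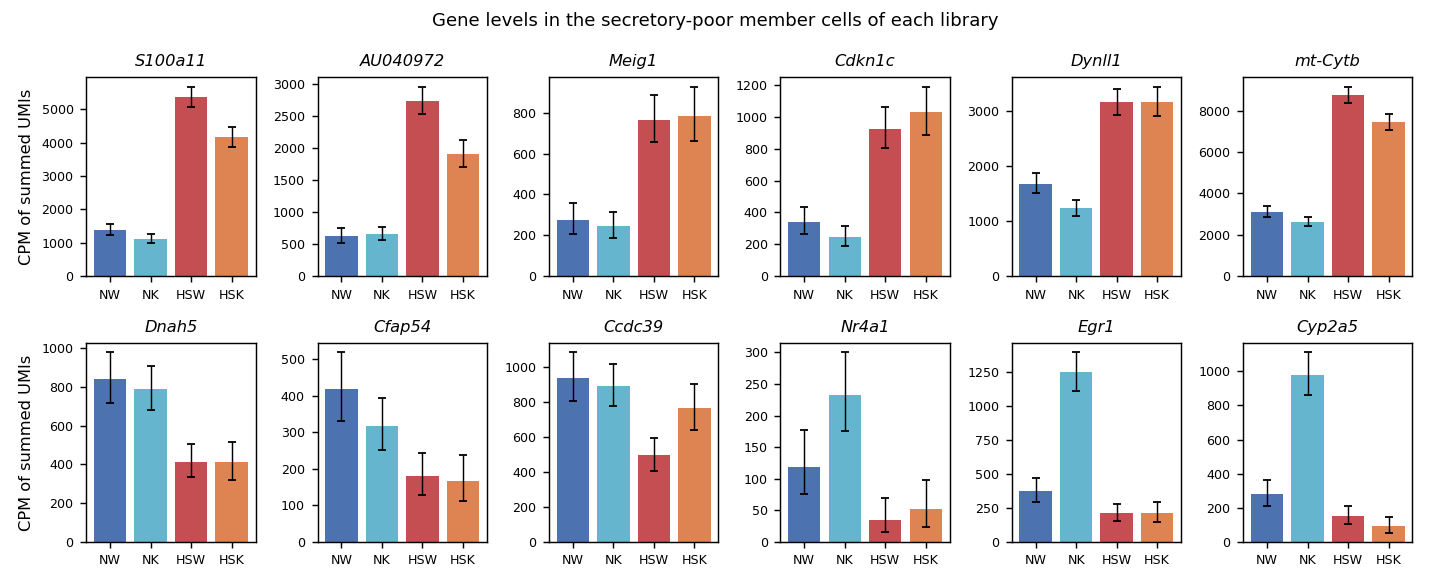
Bars give the level of each of 12 genes in CPM of the summed UMIs of secretory-poor members in NW (33 cells), NK (51), HSW (35) and HSK (26), with exact Poisson 95% intervals that cover counting error only. S100a11, AU040972, Meig1, Cdkn1c, Dynll1 and mt-Cytb were higher in both HySu libraries, Dnah5 and Cfap54 were lower in both, and Egr1 and Cyp2a5 were highest in NK.

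Mitochondrially encoded transcripts of oxidative phosphorylation were higher with HySu in secretory-poor members, while few nuclear genes for the same complexes passed 2-fold. Of the 13 mitochondrially encoded subunits, 6 had at least 50 UMIs in the pair, and 6 of 6 were above 1 in both pairs, with median log2 ratios of 1.18 for HSW over NW and 1.34 for HSK over NK. At least 2-fold higher were 4 of 6 and 6 of 6, against 4.67% and 6.29% of all genes. mt-Cytb, the cytochrome b of complex III, stood at 3110, 2629, 8784 and 7451 CPM in NW, NK, HSW and HSK, with ratios of 2.82 (2.58 to 3.10) and 2.83 (2.58 to 3.12). In all other cells the medians of the mitochondrially encoded list were 0.64 and 1.05, so the direction was not particular to ciliated cells. In secretory cells they were -0.45 and -0.11, above the -0.75 and -1.14 of all genes in those cells. The median mitochondrial share of UMIs in secretory-poor members was 1.52%, 1.33%, 3.38% and 2.91% in NW, NK, HSW and HSK. Of nuclear genes for the same complexes, 55 of 65 measured were above 1 for HSW over NW. For HSK over NK these were 47 of 62. The medians were 0.41 and 0.36 against 0.08 and 0.24 in all other cells. These stand on unlike baselines. The medians of all genes were -0.03 and -0.07 in secretory-poor members, over 1712 and 1766 genes. In all other cells they were -0.29 and -0.52, over 15720 and 15594 genes, so the gene sets behind the baselines also differ. At least 2-fold higher were 3 of 65 and 7 of 62, against the 4.67% and 6.29% of all genes. The list medians in secretory-poor members lay close to the 0.40 and 0.35 of the third of all genes with the shortest transcripts.

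The mitophagy and autophagy list, the process that Fundc1 belongs to, had medians of 0.38 and 0.35 over 11 measured genes of 31 in each HySu pair. In each pair 2 of the 11 were at least 2-fold higher, against 4.67% and 6.29% of all genes, and in both pairs these were Map1lc3a and Map1lc3b, which encode LC3 proteins of the autophagosome. Map1lc3a stood at 350, 340, 906 and 723 CPM in NW, NK, HSW and HSK and Map1lc3b at 242, 184, 565 and 467 CPM. Their HSW over NW ratios were 2.59 (1.96 to 3.46) and 2.33 (1.66 to 3.33), and their HSK over NK ratios 2.13 (1.60 to 2.83) and 2.54 (1.75 to 3.72). The ratio of the HySu ratios, knockout over wild type, was 0.822 (0.547 to 1.23) for Map1lc3a and 1.09 (0.646 to 1.83) for Map1lc3b. The NRF2 and glutathione list had medians of 0.58 and 0.27 over 30 measured genes of 49. Prdx6, a peroxiredoxin, stood at 752, 868, 1559 and 1042 CPM, with ratios of 2.07 (1.71 to 2.53) in wild type and 1.20 (0.981 to 1.47) in knockout.

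Axonemal lists had medians on both sides of 0 with HySu, and differences between the lists were not tested. The inner dynein arm and ruler list had medians of -0.56 for HSW over NW (9 of 11 measured genes below 1) and -0.33 for HSK over NK (8 of 11). The central pair list had -0.47 (11 of 14 below 1) and -0.30 (10 of 13), and the radial spoke and nexin link list -0.33 (11 of 15) and -0.28 (12 of 17). With TMM factors these medians stayed below 0 but shrank to -0.30 and -0.10, -0.21 and -0.07, and -0.07 and -0.05, while the median of all genes moved to 0.24 and 0.16. The outer dynein arm list had -0.09 and -0.41 (TMM 0.17 and -0.18, a change of sign in the HSW pair) and intraflagellar transport -0.20 and 0.01 (TMM 0.06 and 0.24, again with a change of sign in the HSW pair). The dynein assembly factors, over 7 measured genes of 18, had 0.03 and -0.16 (TMM 0.29 and 0.06, with a change of sign in the HSK pair). The microtubule inner proteins had medians above 0 on both scales, 0.27 (12 of 16 above 1) and 0.08 (10 of 15) on total UMIs.

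Dnah5 stood at 839, 788, 412 and 410 CPM in NW, NK, HSW and HSK. The HySu libraries were below the normoxia libraries in both genotypes, with ratios of 0.490 (0.376 to 0.636) and 0.520 (0.392 to 0.685), or 0.587 and 0.610 with TMM. The share of secretory-poor cells with a Dnah5 UMI was 100%, 92.2%, 85.7% and 84.6%. Cfap54, a projection protein of the central pair, stood at 417, 316, 180 and 165 CPM, with ratios of 0.430 (0.288 to 0.634) and 0.523 (0.329 to 0.809). Ccdc39, which sets the repeat length along the doublet, stood at 937, 892, 495 and 763 CPM. Its HSW over NW ratio was 0.528 (0.414 to 0.671), its HSK over NK ratio 0.855 (0.685 to 1.06), and the ratio of these ratios 1.62 (1.16 to 2.26). Cluap1, a subunit of the intraflagellar transport B complex, had 35, 48, 14 and 10 UMIs and ratios of 0.340 (0.169 to 0.648) and 0.297 (0.134 to 0.594). On the other side, Dynll1, a light chain shared by axonemal and cytoplasmic dyneins, stood at 1674, 1228, 3153 and 3162 CPM, with ratios of 1.88 (1.65 to 2.15) and 2.57 (2.23 to 2.97). Fam183b, counted with the inner proteins, stood at 1318, 1304, 2382 and 2472 CPM, with ratios of 1.81 (1.55 to 2.10) and 1.90 (1.64 to 2.19). Tppp3, a tubulin-binding protein that promotes polymerization, stood at 6020, 4970, 8915 and 7451 CPM, with ratios of 1.48 (1.38 to 1.59) and 1.5 (1.39 to 1.62).

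Transcript length moved with these HySu ratios. Among all genes measured in secretory-poor members, the third with the shortest transcripts had a median log2 ratio of 0.40 for HSW over NW and 0.35 for HSK over NK, and the third with the longest -0.40 and -0.37. The same order held in all other cells, at 0.18 and -0.30 for HSW over NW and 0.24 and -0.56 for HSK over NK. In the knockout pairs the medians of the shortest and the longest of these strata lay between -0.06 and 0.06. The longest annotated transcript was 15637 bases for Dnah5, 9903 for Cfap54, 511 for S100a11 and 706 for Meig1, and list medians were 4979 for the inner dynein arm, 4569 for the central pair and 1001 for nuclear oxidative phosphorylation. The part of length in these ratios was not tested.

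**Figure D3:**
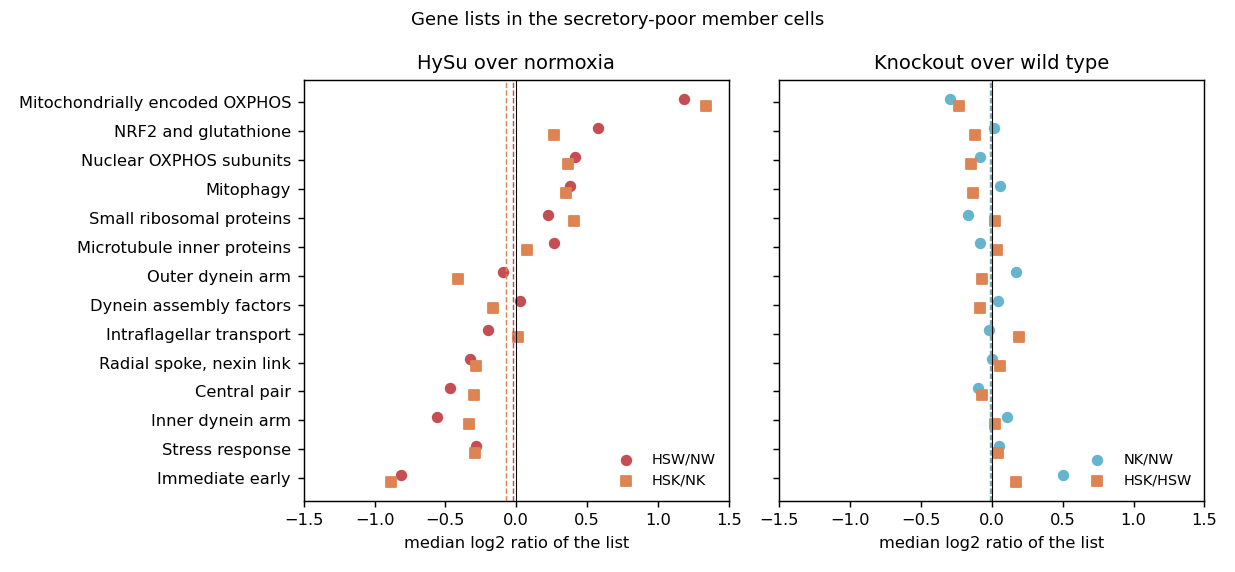
Points give the median log2 ratio of the measured genes of 14 lists in secretory-poor members, for HySu over normoxia in wild type (HSW/NW) and knockout (HSK/NK) on the left and for knockout over wild type in normoxia (NK/NW) and HySu (HSK/HSW) on the right; dashed lines mark the medians of all genes. The mitochondrially encoded list stands at 1.18 and 1.34 and the immediate early list at -0.81 and -0.88 on the left, and in the right panel the immediate early list at 0.50 for NK/NW is the farthest from 0 of the lists drawn.

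Immediate early genes, which switch on within minutes of a stimulus, were lower with HySu. Of 15 measured, 14 were below 1 for HSW over NW with a median of -0.81, and of 16 measured, 15 were below 1 for HSK over NK with a median of -0.88 (TMM -0.55 and -0.65). At least 2-fold lower were 5 of 15 and 7 of 16, against 6.31% and 8.15% of all genes. The list had medians of -0.67 and -0.96 in all other cells, so the direction was not particular to ciliated cells. The medians of all genes differed between the sets, at -0.29 and -0.52 in all other cells and -0.03 and -0.07 in secretory-poor members. Those medians are over unlike gene sets, 1712 and 1766 genes in secretory-poor members and 15720 and 15594 in all other cells. How far the list lay below a matched set of genes was not tested. Nr4a1, an orphan nuclear receptor, had 23, 58, 8 and 9 UMIs in NW, NK, HSW and HSK, with ratios of 0.296 (0.114 to 0.685) and 0.221 (0.0962 to 0.449), and 1 cell held 44.4% of the 9 UMIs in HSK. Dusp1, a phosphatase of MAP kinases, stood at 510, 424, 219 and 370 CPM. Its ratio was 0.429 (0.299 to 0.609) for HSW over NW and 0.873 (0.631 to 1.20) for HSK over NK. Atf4, the transcription factor of the integrated stress response, had 25, 40, 12 and 10 UMIs and ratios of 0.408 (0.187 to 0.843) and 0.356 (0.159 to 0.724).

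Egr1, a zinc-finger transcription factor of the same list, had its highest level in NK. It stood at 371, 1248, 210 and 211 CPM in NW, NK, HSW and HSK, with a UMI in 42.4%, 72.5%, 25.7% and 46.2% of secretory-poor cells. The NK over NW ratio was 3.37 (2.60 to 4.41), and the cell with most UMIs held 11.2% of the UMIs in NK and 33.3% in HSW. In all other cells the NK over NW ratio was 1.04, and the ratio in secretory-poor members was 3.24 times that (2.50 to 4.25), whereas secretory cells stood at 178 CPM in NW and 459 in NK. The HSK over HSW ratio was 1.00 (0.635 to 1.57). The HSK over NK ratio of 0.169 (0.117 to 0.238) was 0.298 times (0.175 to 0.507) the HSW over NW ratio of 0.567 (0.385 to 0.828).

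Further genes lower with HySu in both genotypes included a ligand, a chromatin enzyme and enzymes of secreted or foreign molecules. Wnt4, a secreted Wnt ligand, had 42, 40, 10 and 11 UMIs in NW, NK, HSW and HSK, with ratios of 0.202 (0.0906 to 0.410) and 0.392 (0.181 to 0.777), and stood at 0 to 1.74 CPM in secretory cells. Kmt2a, a histone H3 lysine methyltransferase, had 24, 46, 5 and 4 UMIs, with ratios of 0.177 (0.0528 to 0.474) and 0.124 (0.0324 to 0.339). Qsox1, a sulfhydryl oxidase that forms disulfides, had 49, 56, 17 and 10 UMIs, with ratios of 0.295 (0.159 to 0.521) and 0.254 (0.116 to 0.503). Sult1d1, a cytosolic sulfotransferase, had 44, 51, 17 and 9 UMIs, with ratios of 0.329 (0.176 to 0.587) and 0.251 (0.109 to 0.515). Among regulators of ciliated cell fate, Myb had 48, 51, 30 and 16 UMIs, with ratios of 0.531 (0.325 to 0.856) and 0.447 (0.238 to 0.796). The list of 16 ciliogenesis regulators had medians of -0.51 for HSW over NW and -0.40 for HSK over NK (TMM -0.25 and -0.17). Foxj1, a gene of the rule and given as a description, stood at 886, 1064, 622 and 535 CPM.

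The HySu pairs in wild type and in knockout share no library, so their calls can be set side by side. Of 1541 genes measured in both pairs in secretory-poor members, 66 were at least 2-fold higher in wild type and 104 in knockout, and 35 were higher in both. These were 53% of the wild-type list, against 6.75% of all 1541 genes called in knockout, and 33.7% of the knockout list, against 4.28% called in wild type. Of these 35, 5 were also at least 2-fold higher in all other cells in both pairs. The share of all 1541 genes that passed 2-fold there was not counted, so this does not show what was particular to ciliated cells. At least 2-fold lower were 88 and 93, with 24 in both, 27.3% and 25.8% of each list, against 6.04% and 5.71% of all genes called in the other pair. Of these 24, 1 was also at least 2-fold lower in all other cells in both pairs, with the same limit. The wild-type and knockout pairs both had S100a11, AU040972, Meig1, Cdkn1c, Cxcl17, Gapdh, Gstp1, Map1lc3a and Map1lc3b among the higher genes and Wnt4, Qsox1 and Sult1d1 among the lower ones.

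**Figure D4:**
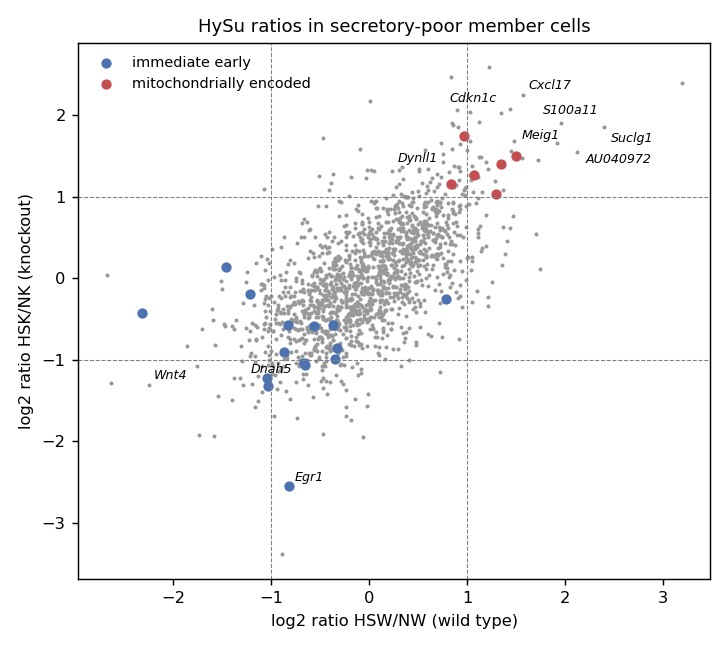
Each point is 1 gene with at least 50 UMIs in both HySu pairs (1541 genes) in secretory-poor members, with the log2 ratio HSW/NW on the horizontal axis and HSK/NK on the vertical axis; dashed lines mark 2-fold. The mitochondrially encoded genes lie at the upper right, most immediate early genes lie at the lower left, and Egr1 is the lowest of the coloured points on the vertical axis at a ratio of 0.169.

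Aoc1, a diamine oxidase that breaks down histamine, had unlike HySu ratios in the genotypes. It stood at 221, 88.0, 223 and 404 CPM in NW, NK, HSW and HSK. The HSK over NK ratio of 4.59 (2.81 to 7.79) was 4.56 times (2.33 to 9.0) the HSW over NW ratio of 1.01 (0.659 to 1.55). Aoc1 was chosen by its values among many genes, and these intervals do not allow for that choice or for UMIs clustered in cells. How many of all genes had such an interval without 1 was not counted. Klf2, a Krüppel-like factor, stood at 294, 312, 105 and 342 CPM, so that HSW was the low library. Its HSK over HSW ratio was 3.25 (2.00 to 5.46), 5.44 times (3.33 to 9.14) that in all other cells, where the ratio was 0.598. All other cells are a mixture whose make-up differed between libraries. Alveolar type 2 cells were 20.1% of HSW and 30.0% of HSK cells, and the lymphocyte marker list summed to 870 and 348 CPM in all other cells. The part of cell make-up in the 0.598, and in other ratios set against all other cells, was not tested. Nr1d1, the clock repressor REV-ERB alpha, had 11, 43, 33 and 13 UMIs, with NK over NW at 3.04 (1.54 to 6.53) and HSK over HSW at 0.512 (0.248 to 1.00).

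The knockout pairs also share no library with each other. Of 1393 genes measured in both, 12 were at least 2-fold higher for NK over NW and 17 for HSK over HSW, and 2 were higher in both. These were 16.7% and 11.8% of each list, against 1.22% and 0.861% of all genes called in the other pair. These 2, named after their values were seen, were Hist1h1c, a linker histone, with ratios of 2.37 (1.39 to 4.22) and 2.04 (1.17 to 3.60), and Rsrp1, an arginine and serine rich protein, with 2.24 (1.42 to 3.65) and 2.06 (1.29 to 3.34). At least 2-fold lower were 18 and 1, with none in both. Trp73, whose product p73 acts upstream of Foxj1, had 38, 18, 21 and 7 UMIs in NW, NK, HSW and HSK. Its NK over NW ratio was 0.368 (0.198 to 0.661), and its HSK over HSW ratio of 0.434 (0.156 to 1.06) held 1 within its interval. Piwil4, a Piwi protein of the piRNA pathway, had 24, 4, 30 and 12 UMIs, with ratios of 0.130 (0.0327 to 0.377) and 0.520 (0.243 to 1.05). Cyp2a5, a cytochrome P450 whose reads may be shared with near-identical family members, stood at 278, 980, 149 and 91.1 CPM. Its NK over NW ratio was 3.53 (2.62 to 4.83), but 1 cell held 40.0% of the 245 UMIs in NK. The outer arm, central pair, radial spoke and intraflagellar transport lists had medians between -0.10 and 0.19 in both knockout pairs, and the mitophagy list 0.06 and -0.13. The list of 16 ciliogenesis regulators had -0.45 for NK over NW and -0.02 for HSK over HSW (TMM -0.46 and -0.06). Without the genes of the rule, this list summed to only 250, 241, 210 and 170 UMIs in NW, NK, HSW and HSK. The respiratory defence list had 0.33 over 5 measured genes of 32 for NK over NW and 0.70 over 3 for HSK over HSW.

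Several lists could hardly be measured in secretory-poor members. Of 42 interferon response genes, 2 or 3 had at least 50 UMIs in a pair, of 14 targets of the aryl hydrocarbon receptor 1, and of 33 cell cycle genes 1. Transcripts that mark other cells were present too. The secretory marker list summed to 9861, 8703, 11021 and 13324 CPM in NW, NK, HSW and HSK, with 8 or 9 of 14 genes detected, and the alveolar type 2 list to 2909, 3837, 2308 and 5252 CPM with 9 or 10 of 10. The AT1 list summed to 752, 336, 517 and 416 CPM (4 to 6 of 8 genes) and the endothelial list to 56.6, 168, 118 and 160 CPM (6 to 10 of 10). The macrophage list summed to 1215, 1485, 1086 and 1253 CPM with 10 to 13 of 13. The monocyte and neutrophil list summed to 1859, 2973, 1248 and 2233 CPM. The fibroblast list summed to 2271, 3025, 1970 and 2011 CPM, lower in both HySu libraries than in both normoxia libraries. In all other cells the fibroblast sum was not far higher, at 2791, 3570, 3674 and 3354 CPM. Basal markers had 0 or 1 UMI per library and mesothelial markers none, and Muc5b of mucous cells was at 0. None of these sums was higher in both HySu libraries than in both normoxia libraries except that of the secretory list, and the part of such transcripts in the ratios above was not tested.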

How the data were processed

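The 4 whole-lung libraries were analysed, 1 pool of 5 mice per group. The deposited matrices hold raw UMI counts per gene and cell, as whole numbers that the authors had not normalized. The tools were STAR 2.6.1a, featureCounts 2.0.1, cutadapt 1.17 and Scanpy with GRCm38 and mm10, per the submitters' processing notes; order and settings are not given in the sources used here. Per the labels' protocols, fresh lungs were digested enzymatically, red cells lysed and polyA RNA captured in microwells. UMIs were summed over members of each library and divided by their total (CPM). Ratios have exact conditional binomial intervals, levels exact Poisson intervals and shares exact Clopper-Pearson intervals, all at 95%. Ratios were computed for genes with at least 50 UMIs in the pair, and log2 ratios with 0.5 UMI added. Calls are ratios of at least 2 or at most 0.5. Genes were named by size of ratio (an interval without 1, at least 50 CPM in 1 library, no cell with 25% or more of the UMIs in the higher library, and 0.5 or more of the level in other cells) and, per list, by the largest ratios; further list members, the use of the rule in secretory-poor members and the secretory-poor set were chosen after the values were seen. Secretory cells for comparison held at least 3% secretory transcripts (lowest 28.9%), under 0.1% of the 8 ciliated genes and under 2% Sftpc, within the leukocyte, endothelial and fibroblast limits of the rule. The members and lists were chosen with earlier results of these data known. Intervals were tested only on simulated independent Poisson counts, the model they assume. That simulation left out the clustering of UMIs in single cells, so it does not show how well the intervals cover in these data. Python 3.11.15, scipy 1.17.1, scanpy 1.11.5 (Scrublet) and edgeR 4.0.16 (TMM factors only) were used. Alternatives changed the rule's limits, the scaling, the weighting and thinning of cells, and the UMI minimum. UMI depth per library, 41308071 to 63501686, sets the precision together with the number of members.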

Additional observations from a re-analysis of the deposited data

Results flagged for a closer look

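The HySu ratio of Bpifa1, a secreted airway defence protein, had opposite directions in the genotypes over all members: 3.29 for HSW over NW (419 and 1592 UMIs in NW and HSW) and 0.00924 for HSK over NK (175 and 1 UMIs in NK and HSK). The difference between genotypes was not tested, since each group was 1 library. In secretory-poor members Bpifa1 had 1, 3, 0 and 0 UMIs in NW, NK, HSW and HSK, and without the cell with the most UMIs in each library the HSW over NW ratio was 0.662.

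Pmp22, a membrane protein of the tetraspan family, had ratios of 2.04 for HSW over NW (48 and 113 UMIs) and 0.427 for HSK over NK (53 and 14 UMIs) over all members, and this difference was likewise not tested. AT1-marked cells numbered 3, 3, 5 and 0 in NW, NK, HSW and HSK, and without them the HSK over NK ratio was 1.59. Secretory-poor members held 2, 2, 7 and 4 UMIs.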

How the results depend on the processing

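The ratios of shares of ciliated cells and the Fundc1 ratios stayed within the counting intervals of the values reported under the alternatives run, but whether an interval held 1 changed. The share ratios ranged from 1.59 to 1.91 for HSW over NW, 1.25 to 1.81 for NK over NW, 0.999 to 1.44 for HSK over NK and 0.794 to 1.25 for HSK over HSW, the last below 1 in secretory-poor members and with secretory transcripts below 3%. With a ciliated share of at least 1% the intervals for HSW over NW (0.988 to 2.60) and NK over NW (0.938 to 2.23) held 1, as they did in secretory-poor members, and for NK over NW with secretory transcripts below 3% (0.806 to 1.97). With at least 0.2% HSK over NK was 1.44 (1.09 to 1.89). The Fundc1 ratio ranged from 0 to 0.0162 for NK over NW and 0.132 to 0.243 for HSK over HSW, where the interval held 1 with secretory transcripts below 3% (0.0264 to 1.09) and in secretory-poor members on both scales (0.0255 to 1.08 on total UMIs). Numbers of genes at least 2-fold apart moved most. They are given as higher and lower for HSW over NW, then HSK over NK, NK over NW and HSK over HSW, where they differed by over 1.5 times from the 54 and 288, 96 and 634, 116 and 51, and 26 and 51 reported. A ciliated share of at least 1% gave 112 lower, 203 lower, 35 higher, and 15 and 11, and one of at least 0.2% gave 33 and 544, 45 and 1446, and 186 and 78. Without the limits on other transcripts the counts were 994 lower for HSK over NK, 193 higher for NK over NW, and 52 and 77 for HSK over HSW, and with surfactant below 1% 13 were higher for HSK over HSW. Secretory transcripts below 3% gave 84 and 118, 156 lower, and 31 and 26, and the secretory-poor members 108 lower, 144 lower, 29 and 27, and 6 lower. Leaving out AT1-marked members gave 21 lower for HSK over HSW. TMM gave 165 and 99, and 284 and 270, median-of-ratios factors 165 and 99, and 301 and 241, and a total without mitochondrial, ribosomal, haemoglobin, surfactant and secretoglobin genes 98 and 168, and 175 and 391. Secretory-poor members with TMM gave 188 and 41, 199 and 75, 26 and 29, and 13 and 11. Means of per-cell CPM gave 84 higher for HSW over NW, 113 lower for NK over NW, and 44 and 87. Without each gene's top cell 187 were higher for NK over NW. Thinning gave 77 lower, 129 lower, 35 higher and 17 higher. A minimum of 20 UMIs gave 164 and 993, 210 and 1621, 526 and 270, and 258 and 306, a minimum of 1 UMI 2180 and 4208, 1734 and 5293, 3449 and 1997, and 2816 and 2869, and a ratio of 1.5 gave 232 and 916, 311 and 1544, 516 and 308, and 197 and 223. Fewer cells or genes, or a looser minimum, set these counts in part by construction; otherwise the cause was not tested.

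Ratios of some named genes crossed to the other side of 1. Their intervals held 1, with the exceptions given, so these values show no opposite direction. Hmox1 and Aox3 had 1 UMI in each library compared in secretory-poor members, where their ratios restate the library totals. With a ciliated share of at least 1%, Hmox1 was 3.66 for HSK over NK and 0.684 for NK over NW, Pmp22 3.66 (1.11 to 15.6, without 1) for HSK over NK and 1.55 for HSK over HSW, and Cryab 1.09, Aqp5 1.81 and Limch1 2.46 for HSK over HSW, while Bpifa1 was 0 (up to 0.0786, without 1) for HSW over NW. With at least 0.2%, Pmp22 was 0.886 for HSW over NW and 1.18 for HSK over NK, and Bpifa1 2.10 (1.75 to 2.53, without 1) for HSK over NK. With secretory transcripts below 3%, Hmox1 was 1.51 (HSK over NK) and 0.787 (NK over NW), Aox3 0.787 (NK over NW) and Bpifa1 0 (HSW over NW). In secretory-poor members Hmox1 was 1.42 and 0.777, Pmp22 2.85 (HSK over NK), Aox3 0.777 and Liph 0.971 (NK over NW), Timp3 1.00, Gprc5a 1.30 and Limch1 2.79 (1.07 to 8.08, without 1; HSK over HSW), and with TMM as well Hmox1 was 1.67 and 0.771, Pmp22 3.34, Aox3 0.771, Liph 0.964, Babam2 0.972, Gprc5a 1.26 and Limch1 2.71 (1.04 to 7.85, without 1). Without AT1-marked members Pmp22 was 1.59 (HSK over NK) and 1.14, Cryab 1.15, Timp3 1.28, Aqp5 1.06 and Limch1 1.28 (HSK over HSW), and without its top cell Bpifa1 was 0.662 (HSW over NW, no interval). The median log2 ratio of the aryl hydrocarbon receptor targets for HSW over NW reversed to -0.22, -0.36, -0.30, -0.039, -0.89, -0.34 and -0.23 with at least 1%, secretory below 3%, secretory-poor members, the same with TMM, thinning, and minima of 20 and 1 UMI. That of antigen presentation reversed to 0.024, 0.042 and 0.27 for HSK over NK with secretory below 3%, secretory-poor members and the same with TMM, and to 0.11 and 0.19 for HSW over NW with secretory-poor members and TMM and with thinning, and that of hypoxia and glycolysis to 0.13 for HSK over NK with secretory-poor members and TMM.

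No paired analysis was possible because each group was 1 library. The 26 to 51 secretory-poor cells per library held 175545 to 249914 UMIs, so genes under 50 UMIs in a pair could not be compared, and 2-fold is near what counting error allows at that minimum. Mice within a pool cannot be told apart, and library and group cannot be told apart.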
